A study of Mus musculus with 6 samples.

Results

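The genes of DNA replication, mitosis and cell cycle control were followed in resting splenic CD8+ T cells (CD8-TC) that lacked the transcription factor Runx3. They were a list of 47 genes, chosen by symbol in 3 groups, namely 17 of replication, 14 of mitosis and 16 of G1 control, the decision to enter the cycle. Of the 47 genes, 45 had a probe set of their own on the array, against 19938 gene symbols with such a probe set in all, and each gene was read through its brightest probe set. A gene was tested where that probe set reached the array's median signal in at least 1 array, which 42 of the 47 did. Mcm10, Ccne2 and E2f1 lay below that level, and Ccnb1 and Cdkn1a had no probe set that named them alone.

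Expression was compared between 3 Runx3-/- and 3 WT arrays, 1 mouse to each, with male mice of the outbred ICR stock aged 6 weeks in both groups. Runx3-/- mice lack Runx3 in the whole body, so that cells other than T cells also developed without it, and mice of an outbred stock are not genetically identical. CD8+ spleen cells of both genotypes were selected on anti-CD8 magnetic beads and used without culture, which is what resting means here. Those of Runx3-/- mice were then sorted by FACS to take away CD8+ dendritic cells that carry CD11c. A further label speaks of sorting for all samples. If only the Runx3-/- cells were sorted, purification and genotype cannot be told apart.

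Resting T cells lie outside the cycle. To enter it, D-type cyclins with the kinases Cdk4 and Cdk6 and then E-type cyclins with Cdk2 phosphorylate the retinoblastoma protein Rb1, which frees E2F factors to switch on the genes of DNA synthesis, while inhibitors of the Cip/Kip and Ink4 families hold the kinases back. The Mcm helicase and its loaders then open the origins of replication, and mitosis runs on cyclins A and B with Cdk1, the Aurora and Polo kinases and the spindle checkpoint, whose genes are read mainly in cells that divide.

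The values were normalized log2 signals, and a difference is Runx3-/- minus WT on that scale, so that 1 unit is a doubling. Across the tested genes the lowest correlation between arrays of 1 genotype was 0.985, and the highest between Runx3-/- and WT arrays was 0.971. The Runx3 probe set (10509030) read 7.06, 7.17 and 7.64 in Runx3-/- arrays and 7.09, 7.30 and 6.99 in WT arrays. This difference, 0.16 ± 0.16 (SE, limma adjusted p = 0.559), checks no label, because no source used here gives which part of the transcript was deleted. Of 9 CD8 T cell markers, among them Cd8a, Cd8b1 and Cd3g, 1 rose (Zap70) and 0 fell. Markers of other cells did move. All 11 B cell markers (Cd79b, Cd79a and Ms4a1 the brightest) fell, their summed linear signal being 218 to 288 in Runx3-/- arrays and 1189 to 1853 in WT arrays, and 11 of 12 macrophage markers fell (Slc40a1, Lyz2, Vcam1), with sums of 247 to 484 in Runx3-/- arrays and 2487 to 2601 in WT arrays. Of the erythroid markers 6 of 7 fell (Car2, Alas2, Slc4a1), with sums of 106 to 110 in Runx3-/- arrays and 345 to 560 in WT arrays, as did 2 of 5 plasma cell markers (Jchain, Mzb1, but not Xbp1), 1 of 5 germinal centre B cell markers (Gcsam, but not Bcl6 or Fas) and 2 of 5 natural killer cell markers (Klrd1 among them, but not Prf1 or Eomes). Of 9 dendritic cell markers (Cd74, H2-Aa, H2-Eb1) 0 passed the threshold, 4 having an unadjusted p under 0.05, and all 6 regulatory T cell markers (Tnfrsf18, Tnfrsf4, Ikzf2) rose. The counts are of markers tested, and the sums also hold markers below the level for testing, such as Klf1, Epor and Hemgn of the erythroid list. Some markers reached that level only in the genotype where they were high, so that their calls are tied to the filter. Among them were Slc4a1, Car1, Epb42, Rhag, Ebf1, Marco and Mzb1 in WT arrays and Foxp3 in Runx3-/- arrays. Array signals have no true 0, and in bulk samples fewer cells of a type and less RNA per cell cannot be told apart.

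In Runx3-/- CD8-TC 0 of the 29 listed replication and mitosis genes tested passed the threshold in either direction. The listed genes that did pass belonged to G1 control, 1 of its 13 tested genes rising and 1 falling. Cdk2, the kinase that works with cyclins E and A, rose by 0.78 ± 0.098 on the log2 scale (SE), or 1.71-fold, and Myc, the transcription factor that drives growth and entry into the cycle, fell by 0.50 ± 0.099, or 1.41-fold. These were 2 of the 42 genes tested, or 4.76%, against 11.6% of all 9924 genes tested (limma with Benjamini-Hochberg adjustment at 0.05). By direction, 1 of 42 rose and 1 fell, against 5.63% and 6% of all genes. By the rule of the study's methods, at least 1.5-fold with an unadjusted p under 0.05, 1 of 42 was called (Cdk2), against 8.07% of all genes. An unadjusted p under 0.05 was reached by 9 of the 42 genes, or 21.4%, against 27.7% of all genes, so that by this count too the cell cycle genes did not lie above the background. Cdkn2c, 1 of the 9, reached the level for testing only in WT arrays. Some calls of cell cycle genes changed when an array was left out. Each fit without an array also called fewer genes in all, so that a lost call need not be due to the array removed. Without Runx3-/- replicate 1, 3 cell cycle genes were called lower (Mcm3, Mki67 and Myc), without WT replicate 3, 2 (Cdc25b and Myc), and without any single one of the other 4 arrays 0, whereas Cdk2 was called higher each time.

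**Figure D1:**
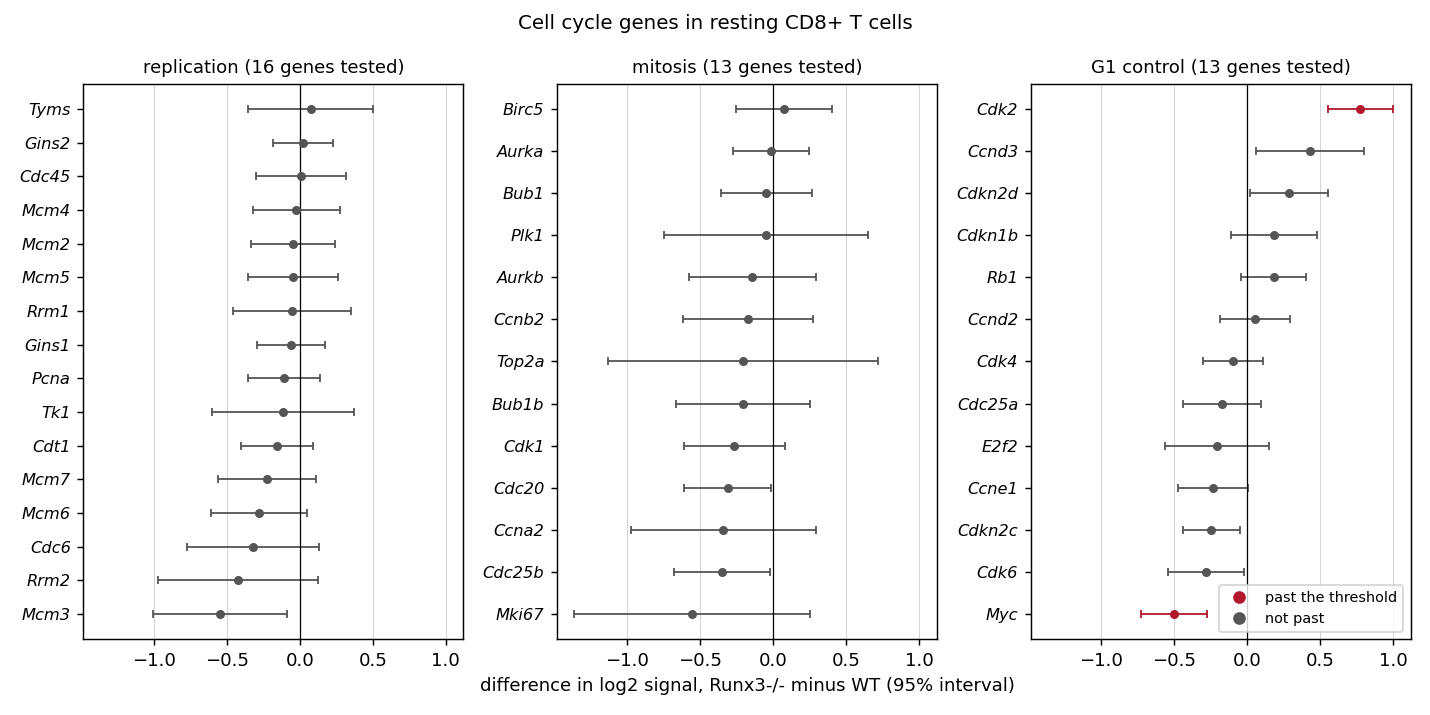
Difference in log2 signal (Runx3-/- minus WT, horizontal axis) of the 42 cell cycle genes tested, in panels for replication, mitosis and G1 control. Points are limma estimates from 3 Runx3-/- and 3 WT arrays, bars their 95% intervals, and red marks the genes past the adjusted threshold, Cdk2 at 0.78 and Myc at -0.50. Most replication and mitosis genes lie left of 0 with intervals that cross it.

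The direction of the differences was less even. Of the 42 genes 32, or 76.2%, had a difference below 0, against 48.9% of all genes tested. Of the 29 replication and mitosis genes 25, or 86.2%, lay below 0, against 7 of 13 G1 control genes, or 53.8%. Among these, Cdc6 reached the level for testing in WT replicate 3 alone and Cdkn2c in WT arrays alone. For such genes the filter favours a difference below 0. The medians were -0.085 for replication, -0.21 for mitosis and -0.096 for G1 control, beside a median of 0.0062 over all genes tested. With a filter at the 75th percentile the G1 control median turned to 0.12, and with array weights the replication and mitosis medians were -0.038 and -0.098. Single arrays also weighed on them. The mitosis median was -0.40 without Runx3-/- replicate 1, -0.076 without Runx3-/- replicate 2, -0.13 without Runx3-/- replicate 3 and -0.032 without WT replicate 3. The replication median was -0.20 without Runx3-/- replicate 1, -0.0066 without Runx3-/- replicate 2, -0.15 without WT replicate 2 and -0.0047 without WT replicate 3, and that of G1 control was -0.053 without Runx3-/- replicate 3. These are descriptions of the lists, and genes that share arrays are not independent replicates. The groups of arrays separated in other proportions. In 0 of the 29 replication and mitosis genes did all 3 Runx3-/- arrays lie on 1 side of all 3 WT arrays, whereas 8 of 13 G1 control genes, or 61.5%, were split in this way, against 33.6% of all genes tested. Among the 8, Cdkn2c reached the level for testing only in WT arrays, so that its split is tied to that filter. The gaps of Ccne1 and Cdk4 were narrow.

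Among the G1 control genes, Cdk2 (probe set 10373530, chromosome 10) read 7.04, 6.96 and 7.16 in Runx3-/- arrays and 6.29, 6.18 and 6.36 in WT arrays. The lowest Runx3-/- array stood well above the highest WT array. The means were 7.05 ± 0.10 in Runx3-/- cells and 6.28 ± 0.090 in WT cells (SD, n = 3 each), and the 95% interval of the difference ran from 0.55 to 1.0 (limma adjusted p = 0.00211). Its promoter is printed because Cdk2 was the one cell cycle gene that rose. The 250 bases before its start, on the minus strand of GRCm38.p6 at chr10:128705052-128705301 per RefSeq, hold an E2F motif and a CCAAT box, both in capitals, the E2F letters TTTCCCGC being read on the opposite strand, 140 bases before the start, and CCAAT 45 bases before it:
Cdk2 promoter: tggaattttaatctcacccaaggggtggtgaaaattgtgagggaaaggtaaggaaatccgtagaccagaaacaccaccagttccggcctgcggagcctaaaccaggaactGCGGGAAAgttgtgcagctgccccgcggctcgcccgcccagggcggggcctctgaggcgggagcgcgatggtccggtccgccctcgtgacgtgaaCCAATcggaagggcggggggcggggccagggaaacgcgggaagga

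A neighbour of Cdk2 on chromosome 10 changed alongside it. The neighbours were looked up after the values of Cdk2 had been seen, among measured genes in the order of their RefSeq start positions. That order does not settle on which side of each other overlapping genes lie. Dgka, which came after Cdk2 in this order, is the source of diacylglycerol kinase alpha, which dampens T cell receptor signalling by removing diacylglycerol. Dgka read 11.50, 11.74 and 11.54 in Runx3-/- arrays and 10.82, 10.98 and 10.72 in WT arrays. It rose by 0.76 ± 0.11 (SE), or 1.69-fold (limma adjusted p = 0.00405), a call lost without moderation of variances (0.0680). Pmel, which came before Cdk2 in the order of starts, read 3.44, 3.45 and 3.51 in Runx3-/- arrays and 3.11, 3.16 and 3.11 in WT arrays, higher in every Runx3-/- array but too dim to be tested. Suox, earlier in that order, read 5.16, 5.17 and 5.35 in Runx3-/- arrays and 5.06, 4.92 and 4.76 in WT arrays. Its groups did not overlap either, and the difference of 0.31 ± 0.11 did not pass the threshold (limma adjusted p = 0.106). Groups without overlap were common, in 33.6% of all genes tested and in 17.4% with Runx3-/- arrays higher. Rab5b, with a difference of -0.13, and Pym1, with 0.23, overlapped between the genotypes. Whether the Rab5b probe set reads that gene or a near-identical copy elsewhere is uncertain. Mmp19, below the level for testing, was lower in all Runx3-/- arrays, by 0.22 in the mean.

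**Figure D2:**
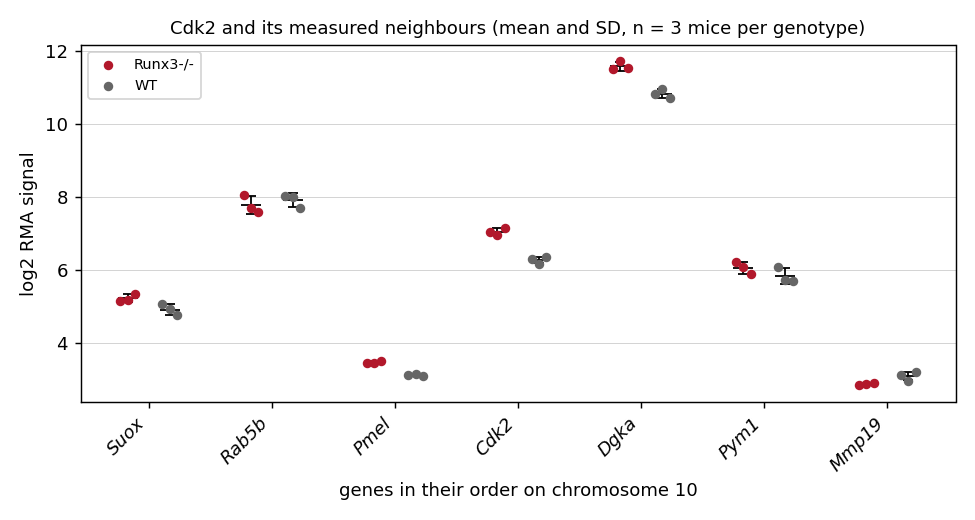
Log2 signal (vertical axis) of Cdk2 and the measured genes near it (Rab5b through a probe set that may read a copy elsewhere), in the order of their RefSeq start positions on chromosome 10, in 3 Runx3-/- arrays (red) and 3 WT arrays (grey), with mean and SD. Cdk2 (7.05 against 6.28) and Dgka (11.6 against 10.8) are the neighbours with the widest gap between the genotypes.

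Myc (probe set 10424400, chromosome 15) read 7.33, 7.20 and 7.27 in Runx3-/- arrays and 7.83, 7.84 and 7.62 in WT arrays. Every Runx3-/- array was below every WT array. The means were 7.26 ± 0.066 in Runx3-/- cells and 7.76 ± 0.12 in WT cells (SD, n = 3 each), the interval of the difference ran from -0.72 to -0.27 and the limma adjusted p was 0.0161. The call was less secure than that of Cdk2, which held in every alternative tried. Without moderation of variances the adjusted p of Myc was 0.0817. Without Runx3-/- replicate 2 the adjusted p of Myc was 0.0603, without Runx3-/- replicate 3 it was 0.0507, without WT replicate 1 it was 0.0650 and without WT replicate 2 it was 0.0573, and the difference stayed between -0.57 and -0.46 in all alternatives. Of its neighbours on chromosome 15, the non-coding Pvt1 had a difference of -0.23 (limma adjusted p = 0.359) and Lratd2 one of 0.38 (limma adjusted p = 0.0510).

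Of the D-type cyclins, which carry outside signals to Cdk4 and Cdk6, the list held Ccnd2 and Ccnd3, and neither passed the threshold. Ccnd3 read 8.06, 8.55 and 8.19 in Runx3-/- arrays and 7.56, 8.01 and 7.94 in WT arrays. All Runx3-/- arrays were above all WT arrays, but the arrays of each genotype spread widely, and the difference of 0.43 ± 0.16 had an interval from 0.062 to 0.80 (limma adjusted p = 0.125). Ccnd2 read 10.54, 10.43 and 10.27 in Runx3-/- arrays and 10.43, 10.38 and 10.25 in WT arrays. The arrays overlapped almost fully, and its difference of 0.058 had an interval from -0.18 to 0.30 (limma adjusted p = 0.764). Of the partner kinases, Cdk6 read 6.50, 6.86 and 6.66 in Runx3-/- arrays and 6.89, 7.03 and 6.93 in WT arrays. All Runx3-/- arrays lay below all WT arrays, 1 of them by a small margin, with a difference of -0.28 ± 0.11 (limma adjusted p = 0.153). Cdk4 read 9.28, 9.30 and 9.16 in Runx3-/- arrays and 9.31, 9.40 and 9.31 in WT arrays. Its groups came close without overlapping, and the interval of the difference ran from -0.30 to 0.11 (limma adjusted p = 0.532).

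The inhibitors of these kinases were uneven. Cdkn2c (p18), an Ink4 inhibitor of Cdk4 and Cdk6, read 3.38, 3.37 and 3.34 in Runx3-/- arrays and 3.68, 3.59 and 3.57 in WT arrays. It was lower in every Runx3-/- array by a tight margin. Its Runx3-/- values lay below the array medians of 3.45 to 3.53 and its WT values above them. It was thus tested only through its WT arrays. The difference of -0.25 ± 0.085 did not pass (limma adjusted p = 0.103). Cdkn2d (p19), of the same family, read 7.10, 6.74 and 6.83 in Runx3-/- arrays and 6.67, 6.62 and 6.50 in WT arrays. It was the other way round, higher in all Runx3-/- arrays, by 0.29 ± 0.12 (limma adjusted p = 0.149). Cdkn1b (p27), the Cip/Kip inhibitor of resting lymphocytes, read 8.02, 8.09 and 8.05 in Runx3-/- arrays and 8.10, 7.88 and 7.61 in WT arrays. The Runx3-/- arrays lay close together within the WT range, and the difference of 0.19 ± 0.13 had an interval from -0.11 to 0.48 (limma adjusted p = 0.388). A second, dimmer probe set of Cdkn1b (10542317) read 6.41, 6.39 and 6.52 in Runx3-/- arrays and 6.74, 6.54 and 6.56 in WT arrays. That one was lower in all Runx3-/- arrays, by 0.17, so that the direction of Cdkn1b depended on the probe set.

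**Figure D3:**
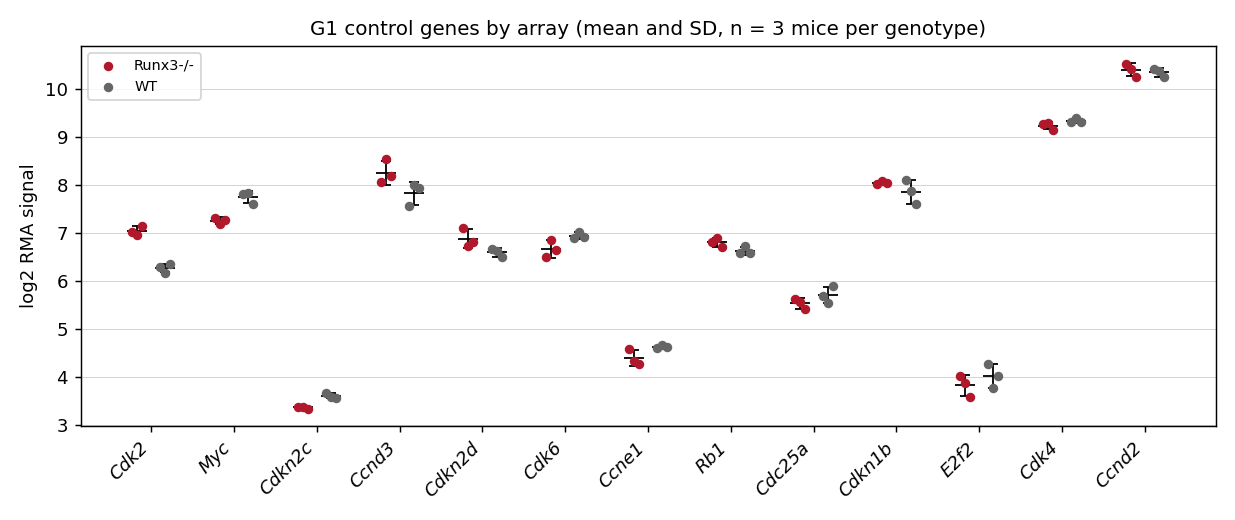
Log2 signal (vertical axis) of the 13 G1 control genes tested, in 3 Runx3-/- arrays (red) and 3 WT arrays (grey), with mean and SD, ordered by p. The Runx3-/- arrays of Cdk2 sit at 6.96 to 7.16, above the WT arrays at 6.18 to 6.36, and those of Myc at 7.20 to 7.33, below the WT arrays at 7.62 to 7.84.

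Further down the pathway, cyclin E1 (Ccne1), the partner of Cdk2, had a difference of -0.23 with groups that did not overlap (limma adjusted p = 0.196). Rb1, the brake on E2F, had one of 0.18 (limma adjusted p = 0.266), Cdc25a, the phosphatase that activates Cdk2, one of -0.17 (limma adjusted p = 0.375) and E2f2 one of -0.20 (limma adjusted p = 0.441). The genes of G1 control whose groups did not overlap were Cdk2, Ccnd3 and Cdkn2d on the higher side and Myc, Cdkn2c, Cdk6, Ccne1 and Cdk4 on the lower, against 17.4% and 16.2% of all genes on these sides. Cyclin, inhibitor and kinase genes were thus found on both sides of 0.

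Of the 16 replication genes tested 0 rose and 0 fell, and 1, Mcm3, had an unadjusted p under 0.05. Mcm3, a subunit of the helicase that unwinds DNA at the fork, read 6.74, 6.45 and 5.89 in Runx3-/- arrays and 6.95, 6.74 and 7.03 in WT arrays. Runx3-/- replicate 3 was far below the rest, whereas Runx3-/- replicate 1 reached the lowest WT array. The difference of -0.55 ± 0.20 was the most negative of the replication genes, with an interval from -1.0 to -0.087 (limma adjusted p = 0.119). Without Runx3-/- replicate 1 it was -0.74 and passed the threshold (limma adjusted p = 0.0480). The 250 bases before its start are printed as a replication promoter that holds a RUNX motif and CCAAT boxes. They lie on the minus strand of GRCm38.p6 at chr1:20820313-20820562, with capitals for the RUNX letters TGTGGT, read on the opposite strand as ACCACA 201 bases before the start, and for 3 CCAAT boxes, the first of them on the opposite strand, 117, 72 and 32 bases before the start:
Mcm3 promoter: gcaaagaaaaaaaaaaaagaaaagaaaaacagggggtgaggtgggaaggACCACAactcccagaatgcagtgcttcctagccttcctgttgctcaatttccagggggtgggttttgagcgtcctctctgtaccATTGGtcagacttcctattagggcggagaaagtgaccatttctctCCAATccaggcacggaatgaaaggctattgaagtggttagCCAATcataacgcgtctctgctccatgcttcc

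The other helicase subunits did not follow Mcm3 to the same extent. Mcm6 read 7.40, 7.11 and 7.23 in Runx3-/- arrays and 7.34, 7.43 and 7.82 in WT arrays. The groups overlapped, with a difference of -0.28 ± 0.14 and an interval from -0.61 to 0.050 (limma adjusted p = 0.251). Mcm4 read 7.37, 7.16 and 6.88 in Runx3-/- arrays and 7.19, 7.10 and 7.20 in WT arrays. The WT arrays lay close together in the middle of the Runx3-/- range, and the difference of -0.023 had an interval from -0.32 to 0.28 (limma adjusted p = 0.934). The differences of Mcm7, Mcm5 and Mcm2 were -0.22, -0.049 and -0.044. That 6 subunits of 1 ring ran between -0.55 and -0.023 was not tested as a difference between them.

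Of the factors that load the helicase, Cdc6 read 3.28, 2.99 and 2.99 in Runx3-/- arrays and 3.32, 3.04 and 3.86 in WT arrays. Only WT replicate 3 stood above the other arrays, and Cdc6 reached the level for testing in that array alone. The difference of Cdc6 was -0.32 ± 0.20 (limma adjusted p = 0.334). Its partner Cdt1 had a difference of -0.15, and Cdc45, Gins1 and Gins2, which join the helicase to make it active, had differences of 0.0092, -0.062 and 0.022. Pcna, the clamp that holds the polymerase to DNA, read 8.90, 8.64 and 8.88 in Runx3-/- arrays and 8.98, 8.81 and 8.95 in WT arrays. The arrays overlapped, with a difference of -0.11 and an interval from -0.35 to 0.14 (limma adjusted p = 0.558), and a second probe set of Pcna gave -0.12.

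The enzymes that supply deoxynucleotides gave a like picture. Rrm2, the regulated subunit of ribonucleotide reductase, read 4.68, 4.12 and 3.97 in Runx3-/- arrays and 4.43, 4.44 and 5.16 in WT arrays. WT replicate 3 was the highest and Runx3-/- replicate 1 came next, and the difference of -0.42 ± 0.24 had an interval from -0.97 to 0.13 (limma adjusted p = 0.296). Rrm1, its large subunit, read 7.63, 7.05 and 7.11 in Runx3-/- arrays and 7.42, 7.06 and 7.47 in WT arrays. Runx3-/- replicate 1 was the highest of the arrays, and the difference of -0.052 had an interval from -0.45 to 0.35 (limma adjusted p = 0.879). Tyms, thymidylate synthase, had the highest difference of the group at 0.076, and Tk1, thymidine kinase, had one of -0.12, with -0.032 in a dimmer probe set. The positions of the probes were not used here, so that signal from near-identical copies of a gene cannot be told apart from its own, and the brighter probe set of Tk1 is uncertain in this respect.

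Of the 13 mitosis genes tested 0 rose and 0 fell, and 2 had an unadjusted p under 0.05. Cdc25b, the phosphatase that switches on Cdk1, read 5.98, 5.92 and 5.75 in Runx3-/- arrays and 6.47, 6.30 and 5.93 in WT arrays. Only WT replicate 3 reached into the Runx3-/- range, and the difference of -0.35 ± 0.14 had an interval from -0.68 to -0.020 (limma adjusted p = 0.157). Without WT replicate 3 it was -0.50 and passed the threshold (limma adjusted p = 0.0358). Cdc20, which activates the anaphase-promoting complex, read 4.04, 3.66 and 3.66 in Runx3-/- arrays and 4.07, 4.24 and 3.99 in WT arrays. Runx3-/- replicate 1 alone lay among the WT arrays, and the difference was -0.31 ± 0.13 (limma adjusted p = 0.160). Cdk1, the mitotic kinase itself, read 3.96, 3.65 and 3.68 in Runx3-/- arrays and 4.17, 3.72 and 4.20 in WT arrays. WT replicate 2 was close to the lower Runx3-/- arrays, and the difference was -0.27 ± 0.15 (limma adjusted p = 0.293).

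Mki67, which codes for the nuclear antigen Ki-67 of dividing cells, had the most negative difference of the mitosis genes. It read 6.03, 4.74 and 4.71 in Runx3-/- arrays and 5.58, 5.38 and 6.18 in WT arrays. Runx3-/- replicate 1 was near the highest WT array, and the other Runx3-/- arrays were below all WT arrays. The difference of -0.56 ± 0.35 had an interval from -1.36 to 0.25 (limma adjusted p = 0.348). Without Runx3-/- replicate 1 it was -0.99 and passed the threshold (limma adjusted p = 0.0360), so that 1 array decided the call. Its promoter is shown because it holds both motifs known from mitotic genes, the CCAAT box and the cell cycle homology region (CHR). The 250 bases before its start, on the minus strand of GRCm38.p6 at chr7:135716380-135716629, have capitals for 3 CCAAT boxes, 188, 166 and 141 bases before the start with the one at 166 on the opposite strand, for 2 CHR motifs (TTTGAA), 116 and 98 bases before it, and for a RUNX motif (TGCGGC) 82 bases before it:
Mki67 promoter: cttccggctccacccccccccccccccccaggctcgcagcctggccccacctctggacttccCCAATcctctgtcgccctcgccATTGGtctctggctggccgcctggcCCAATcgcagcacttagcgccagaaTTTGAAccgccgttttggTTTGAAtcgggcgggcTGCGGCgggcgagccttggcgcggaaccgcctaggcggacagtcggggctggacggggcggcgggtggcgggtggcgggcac

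Top2a, the topoisomerase that untangles sister chromatids, read 6.12, 4.91 and 4.50 in Runx3-/- arrays and 5.40, 4.86 and 5.89 in WT arrays. Runx3-/- replicate 1 was the highest and Runx3-/- replicate 3 the lowest of all 6 arrays. The difference of -0.21 ± 0.40 had an interval from -1.13 to 0.71 (limma adjusted p = 0.779), and a dimmer probe set (10390746), in which all Runx3-/- arrays were below all WT arrays, gave -0.19. Ccna2, cyclin A2, read 5.01, 4.10 and 4.08 in Runx3-/- arrays and 4.64, 4.41 and 5.17 in WT arrays. The order of the arrays was that of Mki67, and the difference was -0.34 ± 0.28 (limma adjusted p = 0.464). The other mitosis genes were the checkpoint kinases Bub1b (-0.21) and Bub1 (-0.047), cyclin B2 (Ccnb2, -0.17), the Aurora kinases Aurkb (-0.14) and Aurka (-0.014), the Polo kinase Plk1 (-0.053) and survivin (Birc5, 0.074), and none of these had an unadjusted p under 0.05.

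**Figure D4:**
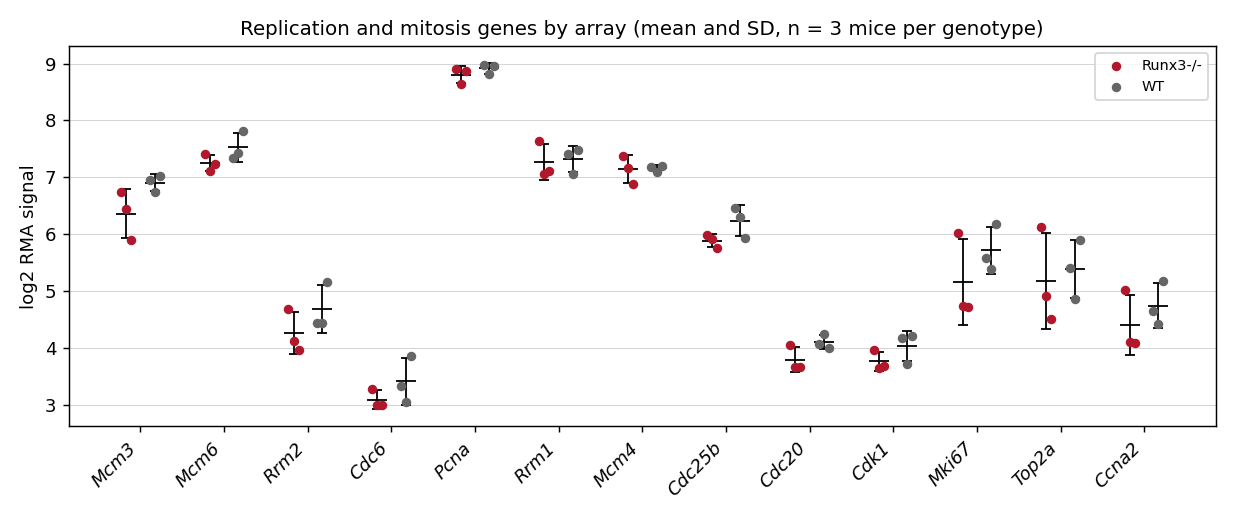
Log2 signal (vertical axis) of 7 replication and 6 mitosis genes in 3 Runx3-/- arrays (red) and 3 WT arrays (grey), with mean and SD. In Mki67, Top2a and Ccna2 a single Runx3-/- array, at 6.03, 6.12 and 5.01, stands apart from the other Runx3-/- arrays and lies within or above the WT range.

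Most of the replication and mitosis genes thus moved together from array to array, within each genotype. When each gene was set against its own mean over the 6 arrays, the mitosis genes had median deviations of 0.24, -0.28 and -0.29 in Runx3-/- replicates 1, 2 and 3 and of 0.11, -0.16 and 0.30 in WT replicates 1, 2 and 3. Runx3-/- replicate 1 and WT replicate 3 were the high arrays. In these, 12 of 13 and 12 of 13 mitosis genes were above their own mean, whereas in Runx3-/- replicates 2 and 3 this held for 0 of 13 each. The exception in both high arrays was Cdc25b, at -0.080 and -0.13, and Cdc20 was highest in WT replicate 2, as was Cdt1 of the replication genes. The replication genes had medians of 0.16, -0.21 and -0.14 in the Runx3-/- arrays and of 0.047, -0.070 and 0.18 in the WT arrays. They followed the same order of arrays in that Runx3-/- replicate 1 had 16 of 16 genes above their own mean and WT replicate 3 had 15 of 16, against 1 and 3 of 16 in Runx3-/- replicates 2 and 3. The G1 control genes had medians between -0.13 and 0.059 in Runx3-/- arrays and between -0.0030 and 0.064 in WT arrays.

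**Figure D5:**
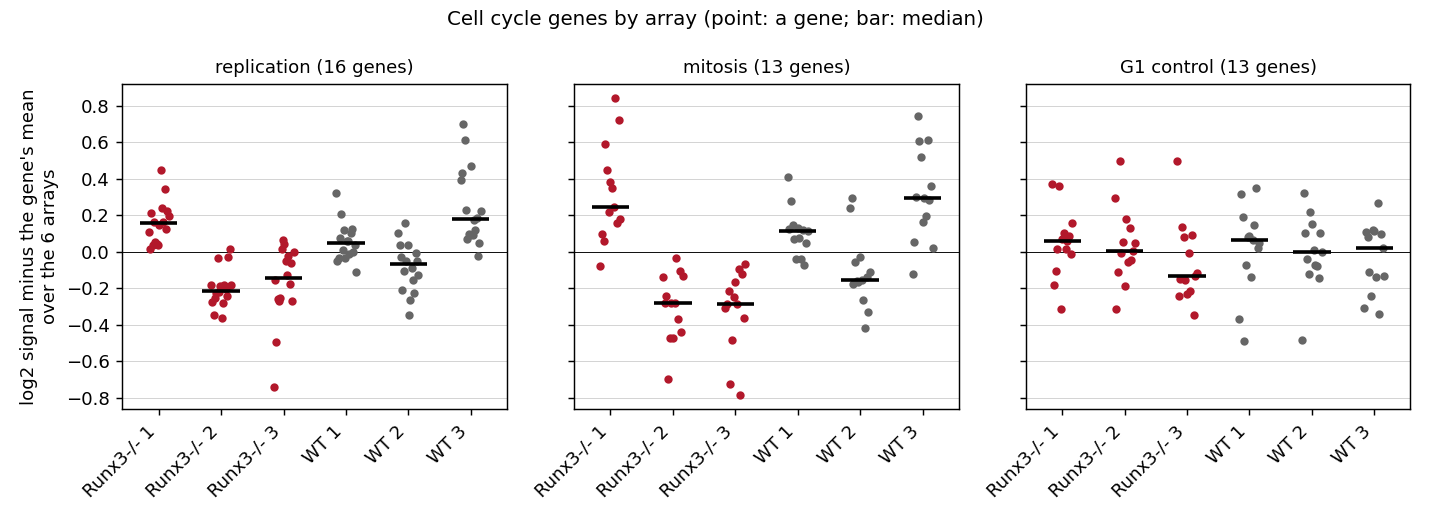
Log2 signal of each tested gene minus its own mean over the 6 arrays (vertical axis), by array, Runx3-/- in red and WT in grey, in panels for replication, mitosis and G1 control. Points are genes and bars medians. In the mitosis panel the medians of Runx3-/- replicate 1 (0.24) and WT replicate 3 (0.30) are high and those of Runx3-/- replicates 2 and 3 (-0.28 and -0.29) low.

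This showed in the spread between mice of a genotype. The pooled SD within genotypes had a median of 0.303 on the log2 scale over the mitosis genes, 0.200 over the replication genes and 0.117 over the G1 control genes, beside 0.139 over all genes tested. All 13 mitosis genes and 12 of 16 replication genes, but 6 of 13 G1 control genes, were above that general median. Top2a had the widest spread of the mitosis genes at 0.699, Rrm2 of the replication genes at 0.399 and Ccnd3 of G1 control at 0.246. The mitosis genes were also dim, 1 of 13 reaching the 75th percentile of every array, as against 9 of 16 replication genes and 9 of 13 G1 control genes.

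The marker sums by array were set beside this pattern. The B cell markers summed to 229, 218 and 288 in Runx3-/- replicates 1, 2 and 3 and to 1189, 1542 and 1853 in WT replicates 1, 2 and 3. The germinal centre B cell markers summed to 127, 132 and 116 in the Runx3-/- arrays and to 147, 154 and 199 in the WT arrays, and the plasma cell markers to 127, 124 and 120 in the Runx3-/- arrays and to 235, 257 and 313 in the WT arrays. These 3 sums were highest in WT replicate 3, and none stood apart in Runx3-/- replicate 1. The natural killer cell markers summed to 446, 428 and 363 in the Runx3-/- arrays and to 693, 686 and 924 in the WT arrays, also highest in WT replicate 3. Other lists ran otherwise. The macrophage markers summed to 247, 388 and 484 in the Runx3-/- arrays and to 2543, 2601 and 2487 in the WT arrays, and the erythroid markers to 106, 108 and 110 in the Runx3-/- arrays and to 560, 345 and 399 in the WT arrays. The dendritic cell markers summed to 2421, 4429 and 2395 in the Runx3-/- arrays and to 4155, 4344 and 7356 in the WT arrays, again with WT replicate 3 the highest but with Runx3-/- replicate 2 the highest of its genotype. Most of that signal came from Cd74, H2-Aa and H2-Eb1, which are not confined to dendritic cells. The regulatory T cell markers summed to 428, 437 and 528 in the Runx3-/- arrays and to 192, 189 and 203 in the WT arrays, and the CD8 T cell markers to 11515, 10570 and 9752 in the Runx3-/- arrays and to 10773, 10441 and 8985 in the WT arrays. The part of these other cells in the levels of the cell cycle genes was not tested.

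The promoters of the listed genes were searched on both strands for 4 kinds of motif, in the 250 bases before each start given by RefSeq (GRCm38.p6). Of the 47 genes 38 had such a window, and Myc was among those that did not. Promoters are counted by gene below, and a gene with several windows counted where any of them held the motif. An E2F motif (TTTCCCGC, TTTCGCGC, TTTGCCGC or TTTGGCGC) was found in 4 of 14 replication promoters, 1 of 12 mitosis promoters and 2 of 12 G1 control promoters. Over all 27025 genes with a window the share was 2.16%. A CHR motif (TTTGAA) was found in 5 of 12 mitosis promoters, or 41.7%, in 2 of 14 replication promoters and in 1 of 12 G1 control promoters, against 18.3% of all promoters. The box CCAAT was found in 11 of 12 mitosis promoters, or 91.7%, in 10 of 14 replication promoters, or 71.4%, and in 6 of 12 G1 control promoters, against 37.5% of all. A RUNX motif, with the letters TGTGGT or TGTGGC in one form and TGCGGT or TGCGGC in the other, was found in 8 of 14 replication promoters, 5 of 12 mitosis promoters and 6 of 12 G1 control promoters, or 19 of 38 in all (50%), against 41.3% of all promoters. A match of letters in these windows is a description and not a site of binding. The Cdk2 window printed above held none of the RUNX letters, and those of Mcm3 and Mki67 held them once each.

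Further genes of the same pathways were read against the share of all genes called, 5.63% higher and 6% lower. Of 37 other replication genes tested 0 rose and 1 fell, with a median of -0.039. Rfc1, the large subunit of the clamp loader that seats Pcna, read 6.24, 6.02 and 6.15 in Runx3-/- arrays and 6.58, 6.62 and 6.68 in WT arrays. It was lower in all Runx3-/- arrays and fell by 0.50 ± 0.095 (limma adjusted p = 0.0140), a call lost without Runx3-/- replicate 2 (limma adjusted p = 0.0506). Orc4, of the origin recognition complex, Mcm9, a helicase of repair, and Slbp, which binds histone mRNA, had differences of 0.31, 0.33 and -0.44 that did not pass, although Slbp did without WT replicate 2 (limma adjusted p = 0.0435).

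Of 35 other mitosis genes tested 1 rose and 1 fell, with a median of -0.099, and 11 more were below the level for testing. Racgap1, which acts in cytokinesis, read 7.52, 7.36 and 7.15 in Runx3-/- arrays and 7.92, 8.12 and 7.84 in WT arrays. It was lower in all Runx3-/- arrays and fell by 0.62 ± 0.12 (limma adjusted p = 0.0172). The call was lost without Runx3-/- replicate 2 (limma adjusted p = 0.0550), Runx3-/- replicate 3 (0.0552), WT replicate 1 (0.0515) or WT replicate 2 (0.0563). Smc4, a core subunit of condensin, read 9.38, 9.32 and 9.17 in Runx3-/- arrays and 8.88, 8.82 and 8.60 in WT arrays. It was higher in all Runx3-/- arrays and rose by 0.52 ± 0.11 (limma adjusted p = 0.0203), a call lost without Runx3-/- replicate 1 (0.0598) or Runx3-/- replicate 2 (0.0699). Ube2c, the ubiquitin-conjugating enzyme of the anaphase-promoting complex, and Wee1, the kinase that restrains Cdk1, had differences of -0.36 and -0.42 that did not pass.

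Of 30 other G1 control genes tested 0 rose and 2 fell, with a median of 0.057. Ccnd1, the D-type cyclin that lymphocytes use little, read 3.61, 4.18 and 4.15 in Runx3-/- arrays and 5.21, 4.60 and 5.30 in WT arrays. It was lower in all Runx3-/- arrays and fell by 1.06 ± 0.21, or 2.08-fold (limma adjusted p = 0.0172), a call lost without WT replicate 1 (0.0646). It fell beside the B cell, macrophage and erythroid markers given above, and their part in it was not tested. Tob1, which holds back T cell proliferation, read 6.46, 6.34 and 6.26 in Runx3-/- arrays and 6.93, 6.85 and 6.63 in WT arrays. It fell by 0.45 ± 0.11 (limma adjusted p = 0.0357), a call lost without Runx3-/- replicate 2 (0.0994), Runx3-/- replicate 3 (0.105), WT replicate 1 (0.120) or WT replicate 2 (0.0959). Ccng2 and Rbl2, both known from resting cells, had differences of 0.29 and 0.44 that did not pass, although Rbl2 did without WT replicate 3 (limma adjusted p = 0.0403).

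The partners and targets of Myc were looked at beside its own fall. In its network of 8 tested genes 0 rose and 1 fell, with a median of 0.023. Mycl, a relative of Myc, read 3.08, 3.76 and 3.41 in Runx3-/- arrays and 4.08, 3.92 and 4.44 in WT arrays, lower in all Runx3-/- arrays by 0.73 ± 0.19 (limma adjusted p = 0.0437), near the array median. That call was lost when any array other than Runx3-/- replicate 2 was left out, the adjusted p then being between 0.0506 and 0.116. Max, the partner that Myc needs to bind DNA, had a difference of 0.13, the Max-like factor Mlx one of 0.17 and Mxd4, which competes with Myc for Max, one of 0.36, and these did not pass, although Mxd4 did without WT replicate 1 (limma adjusted p = 0.0446).

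Of 21 Myc target genes tested 1 rose and 2 fell, with a median of -0.10. The 3 calls in 21 genes lay near the 11.6% of all genes called. Cad, the enzyme that starts pyrimidine synthesis, read 6.09, 5.87 and 5.80 in Runx3-/- arrays and 6.47, 6.64 and 6.54 in WT arrays. It was lower in all Runx3-/- arrays and fell by 0.63 ± 0.11, or 1.55-fold (limma adjusted p = 0.00851). Srm, spermidine synthase, fell by 0.40 ± 0.10 (limma adjusted p = 0.0430), a call lost when any array other than WT replicate 2 was left out, with an adjusted p between 0.0822 and 0.133. Ldha, lactate dehydrogenase A, rose by 0.35 ± 0.088 (limma adjusted p = 0.0392), a call lost when any of the 6 arrays was left out, with an adjusted p between 0.0534 and 0.115. Hspd1, a mitochondrial chaperone, had a difference of -0.39 that did not pass, from a probe set that may also read near-identical copies. Of the 21 targets 16 had a difference below 0, against 48.9% of all genes tested. Without moderation of variances the calls of all the genes named here from outside the list of 47, from Rfc1 to Ldha, were lost, with adjusted p from 0.0624 to 0.206.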

How the data were processed

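Values were log2 signals of Affymetrix mouse Gene 1.0 ST arrays, deposited by the authors after RMA with GC correction in Partek. Neither software versions nor a genome build is given in the sources used here. That the scale was log2 follows from array medians of 3.45 to 3.53 and maxima of 13.3 to 13.5. No array was renormalized, and no more than 14 values were identical between 2 arrays. Of 35399 probe sets, GEO's platform annotation gave 21789 a single symbol, 1621 several and 11989 none. RefSeq (GRCm38.p6) knew 21698 of the single-symbol probe sets and 0 symbols were updated. A gene took its brightest probe set and was tested where this reached an array's median in at least 1 array.

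Differences were fitted across all 9924 genes with limma 3.58.1 in R 4.3.3 (lmFit and eBayes, two-sided, no covariates) and adjusted by Benjamini-Hochberg at 0.05. Intervals are 95%. Precision is limited by the number of arrays. In simulated data with 200 of 9924 genes changed, limma recovered 35.8% of log2 changes of 0.5, 85.4% of 1 and 98.6% of 2, and 5.06% of its calls were false. The simulation drew each gene independently and changed fewer genes than the 1154 called here. It averaged over all genes, whose median SD of 0.139 was below that of mitosis (0.303) and replication genes (0.200). These percentages therefore do not give the recovery for those genes. The members and lists were chosen with earlier results of these data known, so no list was tested as a set. Of the 47 listed genes, values per array were given for those past the threshold or with an unadjusted p under 0.05. They were also given for the 4 of lowest p and the 4 brightest of each group. Up to 4 genes of each further list were named by p, and the 3 brightest of each marker list. Neighbours were added after the values were seen. Alternatives covered the filter, normalization, probe set rule, variance model, array weights, a replicate block, the methods' call rule and leaving out each array.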

Additional observations from a re-analysis of the deposited data

How the results depend on the processing

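Cdk2 kept its call in all 16 alternatives, with differences from 0.72 to 0.82 and adjusted p from 0.0014 to 0.0455. Myc lost it without moderation of variances (adjusted p = 0.0817) and in 4 of 6 fits without an array, its adjusted p running from 0.00922 to 0.0817. Without moderation, 86 genes were higher and 92 lower in Runx3-/- cells, and 0 cell cycle genes were lower. A filter at the 75th percentile left 367 lower genes and put the G1 control median at 0.12. The methods' rule of 1.5-fold and an unadjusted p under 0.05 called 310 higher and 491 lower genes, Cdk2 among the cell cycle genes and 0 lower ones. Leaving out each array in turn gave 232 to 436 higher and 323 to 500 lower genes, with 1 cell cycle gene higher throughout and 0 to 3 lower, and medians of -0.20 to -0.0047 for replication, -0.40 to -0.032 for mitosis and -0.12 to -0.053 for G1 control. Of the 22 cell cycle genes followed, 18 never changed sign. With array weights Rrm1 was 0.015 and Mcm4 0.016. Leaving out an array put Rrm1 between -0.24 and 0.056, Mcm4 between -0.14 and 0.11, Top2a between -0.68 and 0.13 and Ccnd2 between -0.0053 and 0.13. Whether replicate numbers in the titles pair the samples was not settled. Deviations of same-numbered arrays correlated at 0.18, 0.032 and -0.00014. Differently numbered arrays were not compared, so these values cannot decide it. The fit with the replicate block called 565 higher and 519 lower genes, and 2 cell cycle genes higher, Ccnd3 joining Cdk2 (adjusted p = 0.0489), and 1 lower. For the genes outside the list of 47, whose alternatives were added after seeing the data, Dgka, Cad, Rfc1, Racgap1, Smc4, Ccnd1, Tob1, Mycl, Srm and Ldha lost their calls without moderation (adjusted p from 0.0624 to 0.206). The block took those of Mycl (0.0696), Srm (0.0604) and Ldha (0.0630), and gave calls to Slbp, Ube2c and Hspd1 (0.0430 to 0.0482). Mycl was also lost with lower filters on signal (0.0587 and 0.0796) and with array weights (0.0512), Srm with array weights (0.0508) and quantile normalization (0.0506) and Ldha with median centring (0.0631), whereas Rbl2 passed with array weights (0.0368). The cause of these shifts was not tested. A gene near the array median may have its change understated.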
